A study of Rattus norvegicus with 14 samples.

Results

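The windows described here are the 1000 bp windows of rat chromosome 10 (build rn7) that start after 102000000 and end by 105000000. They numbered 817 of the 194367 windows of the table, and 12407 more lay on the rest of chromosome 10. The 3 Mb interval was selected on the methylation levels described here, because windows near its middle had been seen to differ between 2 rat lines, so every line difference in it is given as a description of how it was chosen. The method was reduced representation bisulfite sequencing (RRBS), applied to DNA of the left soleus of female rats aged 23 to 24 months at baseline. There were 6 samples of the high-running capacity line (HCR) and 8 of the low-running capacity line (LCR). Both lines were in generation 44 of selection from one genetically heterogeneous stock, N:NIH, and were kept on standard chow and water at will. There is 1 line of each kind, so selection for running and chance drift between the lines cannot be told apart. The labels number the samples without saying whether each is a different rat, so spreads and p-values describe these samples only.

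Most cytosine methylation in mammals sits at CpG dinucleotides, where it is copied to the new strand after each replication and stays fairly stable within a cell type. CpG-dense promoters are usually free of it, whereas most other CpGs are methylated, and windows at middle levels mix alleles, cells or sites that differ. RRBS cuts at CCGG and converts unmethylated cytosines, so it reads mainly CpG-rich DNA. Soleus is a postural muscle rich in slow fibres, and a sample of it also holds cells of vessels, nerves and connective tissue. In such bulk DNA a different mix of cells and a different methylation of the same cells cannot be told apart. The genes in the interval and differences in DNA sequence between the lines were not analysed here, so levels are given as the table reports them.

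The interval was dense in measured windows, and like the rest of chromosome 10 it was mostly of middle level. It held 272 windows per Mb, against 119 per Mb on the rest of chromosome 10, and its members ran from 102006001 to 104991000. A value in all 14 samples was present in 627 of them (76.7%), and results are over these windows unless stated. The 190 others lacked a value in 1 to 6 samples, and none had values in fewer than 4 HCR or 4 LCR samples. The median level over all samples was 30.4%, against 28.0% on the rest of the chromosome and 35.6% over all windows of the series. Of the 627 windows, 161 (25.7%) were under 10% methylation, 413 lay from 10 to 70%, and 53 (8.45%) were at 70% or more. The share under 10% was 32.1% on the rest of chromosome 10 and 26.6% over all common windows of the series. From 10 to 70% lay 5501 of 9018 windows on the rest of chromosome 10. Windows under 10% formed 105 runs of touching windows, of which 66 were a single window. The longest run spanned 7 windows, 104342001 to 104349000. Its mean level was lowest 1.91%, median 2.32% and highest 3.20% in the HCR samples, and 1.79%, 2.04% and 2.33% in the LCR samples. This long unmethylated stretch was low in every sample and overlapped between the lines.

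The samples lacked a value in 19 to 44 windows of the interval in HCR and in 8 to 86 windows in LCR, with LCR replicate 7 the highest. Read depth is unknown, because the table gives percentages without counts. The mean level of the interval was 33.6% ± 0.862 (SD) over the 6 HCR samples and 32.6% ± 1.08 (SD) over the 8 LCR samples. HCR was thus 1.003 percentage points higher (SE 0.519), or 1.61 points with the median over windows in each sample in place of the mean. Over all common windows the difference was 1.12 points (SE 0.543). The interval thus carried a shift of much the same size as the whole table, and after each library was centred on its own mean its difference was -0.115 points. Means were higher in HCR in 406 of the 627 windows (64.8%), against 64.6% of all windows, and the median difference was 0.508 points, against 0.504 points over all windows. At the borders, the first common window inside, at 102006001, stood at 62.5% ± 3.15 (SD) over the 6 HCR samples and 60.1% ± 7.19 (SD) over the 8 LCR samples, and the last, at 104908001, at 11.9% ± 5.01 in HCR and 6.34% ± 2.62 in LCR. The nearest common windows outside, at 101991001 and 105058001, stood at 29.7% ± 10.8 and 58.4% ± 4.37 in HCR, and at 23.6% ± 11.7 and 59.5% ± 4.46 in LCR.

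All the windows that passed the test between the lines lay in the middle of the interval, and they went both ways. The test was limma on log2 logit levels with Benjamini-Hochberg adjustment over the 135802 common windows of the series, and windows with an adjusted p under 0.05 count as called. It called 10 of the 627 windows, where 0.569% of all windows were called. Of these 6 were higher in HCR (background 0.405%) and 4 were lower (background 0.164%). These calls are what drew attention to the interval, so the excess over the background is no result. With each library centred, or after quantile normalization, 8 windows were called (backgrounds 0.492% and 0.497%), 3 higher and 5 lower in HCR, and 7 of the 8 were among the 10. The split between directions also moved with single samples: it was 2 higher and 4 lower without HCR replicate 6, 3 and 5 without HCR replicate 2, 3 and 4 without HCR replicate 1 or 4, and 7 and 4 without LCR replicate 2. In 9 windows of the interval no HCR value overlapped an LCR value (background 0.71%), 5 higher (background 0.558%) and 4 lower in HCR (background 0.152%), and 7 of these 9 were called. All 10 calls and all 9 separated windows lay between 103145001 and 103972000, a stretch of 827 kb with 202 tested windows.

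With all samples, no window was called on either side of that stretch. The 234 tested windows before it and the 191 after it held 0 limma calls. On omission of 1 sample 4 windows there were called, at 102526001 without LCR replicate 1, at 103045001 and 104163001 without LCR replicate 2 and at 104050001 without LCR replicate 8 (limma adjusted p = 0.0258, 0.0338, 0.0445 and 0.0426). With all samples these windows differed by 9.60, 1.32, 2.47 and -14.1 points. An unadjusted limma p under 0.05 was found in 37 of 202 windows inside the stretch (background 10.9%), in 19 before it and in 24 after it. Differences of at least 10 points were found in 18 windows inside the stretch (8.91%; background 3.9%), 9 higher (background 2.85%) and 9 lower in HCR (background 1.06%), and in 6 windows on each side of it. Before the stretch 70.9% of the windows had a higher mean in HCR, inside it 57.4% and after it 64.9%. In 250 kb bins this share was lowest, at 44.8%, in the eighth bin, from 103752001 to 103998000, which held 1 call higher and 2 calls lower in HCR. It was next lowest, at 50%, in the ninth bin, from 104005001 to 104247000, which held 0 calls and lay after the stretch. The ends of the stretch are set by the calls themselves.

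**Figure D1:**
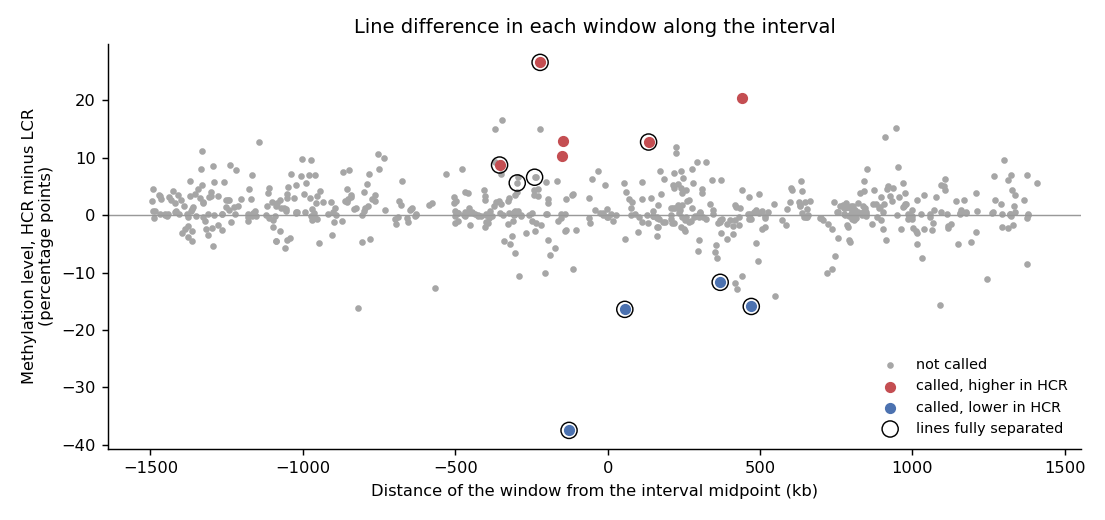
Each point is a window of the interval with a value in all 14 samples; the x axis gives its distance in kb from the interval midpoint and the y axis the HCR mean minus the LCR mean in percentage points. Filled coloured points are the 10 called windows, 6 higher and 4 lower in HCR, and open rings the 9 windows with no overlap between lines; all of them lie within 827 kb, and they run from -37.5 to 26.6 points.

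The 6 called windows with higher methylation in HCR differed by 8.74 to 26.6 points. Called window 2, at 103278001 to 103279000, was the one that differed most. Its levels were lowest 41.8%, median 58.5% and highest 65.3% in HCR, and 21.4%, 27.9% and 39.9% in LCR. Every HCR sample was above every LCR sample, though by only 1.92 points at the closest. HCR averaged 55.8% ± 8.65 (SD, n = 6) and LCR 29.2% ± 5.75 (SD, n = 8), and the means differed by 26.6 points (SE 4.08). Called window 9, at 103941001 to 103942000, had a lowest level of 43.2%, a median of 63.3% and a highest of 72.2% in HCR, and 35.4%, 41.4% and 46.5% in LCR. Here HCR replicate 1, at 43.2%, fell among the LCR samples, and the other 5 HCR samples, from 57.1% upward, were above all of them. HCR averaged 61.5% ± 10.5 (SD, n = 6) and LCR 41.0% ± 3.39 (SD, n = 8), and the means differed by 20.5 points (SE 4.45).

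Called windows 3 and 4 lay 3 kb apart and were both higher in HCR. At 103351001 to 103352000 HCR samples had lowest, median and highest levels of 66.2%, 71.5% and 75.3%, and LCR samples 54.7%, 59.7% and 66.7%. At 103354001 to 103355000 the levels were 37.3%, 47.8% and 52.5% in HCR and 29.8%, 33.5% and 39.6% in LCR. In both windows the lines overlapped at the edge, the lowest HCR level minus the highest LCR level being -0.468 and -2.34 points. The differences were 10.2 points (SE 1.94) and 12.98 points (SE 2.50).

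Called windows 7 and 1 separated the lines fully. Called window 7, at 103634001 to 103635000, had 62.4%, 67.4% and 73.1% in HCR and 43.1%, 56.5% and 58.8% in LCR (lowest, median and highest), a difference of 12.7 points (SE 2.27). Its lowest value was that of LCR replicate 7, and the other LCR samples had 54.4% or more. Called window 1, at 103145001 to 103146000, was the least methylated of the 6, with 14.2%, 17.4% and 24.6% in HCR and 7.30%, 8.99% and 11.2% in LCR, a difference of 8.74 points (SE 1.54). On the log2 logit scale that is 1.03, which is larger than the 0.77 of called window 7 because the scale stretches low levels.

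The 4 called windows with lower methylation in HCR separated the lines fully and differed by -37.5 to -11.7 points. Called window 5, at 103373001 to 103374000, had the largest difference of the interval in either direction. HCR samples had lowest, median and highest levels of 27.5%, 28.3% and 38.8%, and LCR samples 62.2%, 69.3% and 75.5%. The highest HCR sample and the lowest LCR sample were 23.4 points apart. HCR averaged 31.1% ± 5.03 (SD, n = 6) and LCR 68.6% ± 4.78 (SD, n = 8), and the means differed by -37.5 points (SE 2.66), or -2.25 on the log2 logit scale. It was the only window of the interval called under all 24 other settings of the fit, including each omission of a sample.

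Called windows 6, 8 and 10 lay at middle and low levels. Called window 6, at 103556001 to 103557000, had 36.7%, 54.4% and 55.8% in HCR and 58.8%, 67.5% and 73.7% in LCR (lowest, median and highest), a difference of -16.4 points (SE 3.47). Called window 10, at 103971001 to 103972000, had 22.01%, 23.6% and 29.03% in HCR and 35.3%, 39.6% and 46.2% in LCR, a difference of -15.9 points (SE 1.62). Besides called window 5 it was the only common window of the interval whose lines were at least 5 points apart at their closest, at 6.25 points (background 0.136%). Called window 8, at 103869001 to 103870000, was uniformly low in HCR, at 8.62%, 9.40% and 11.3%, and spread from 15.5% over a median of 21.5% to 28.5% in LCR. Its SD was 0.918 points in HCR (n = 6) and 4.63 points in LCR (n = 8), and its means differed by -11.7 points (SE 1.68).

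**Figure D2:**
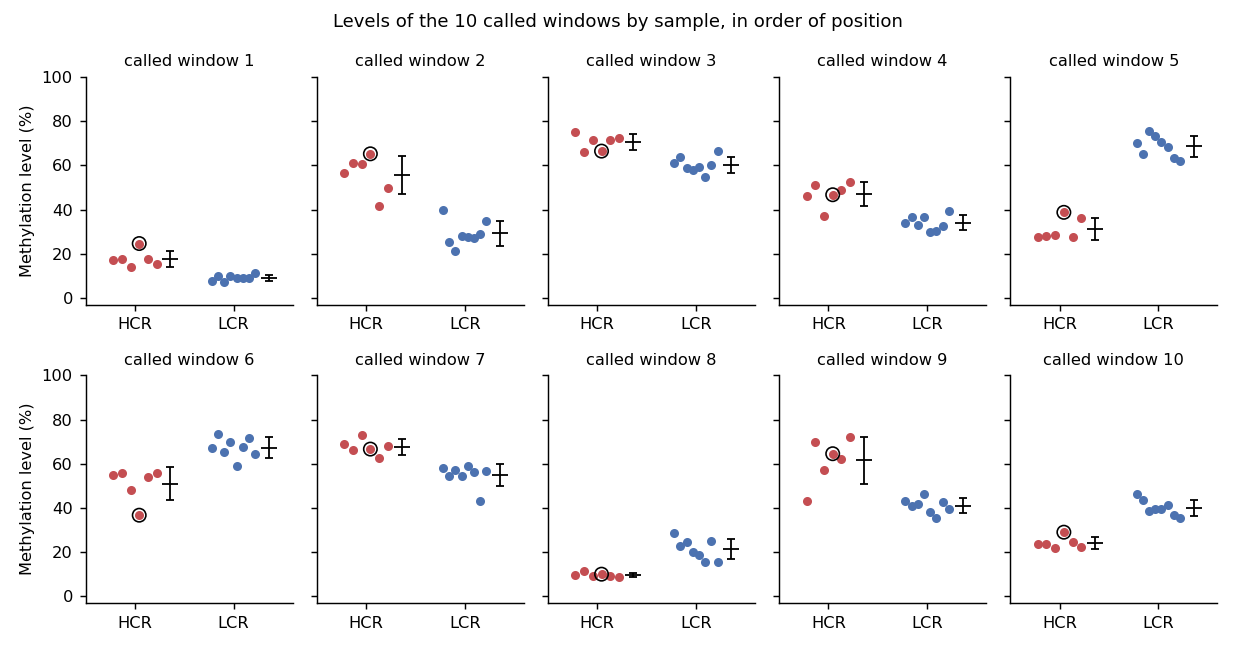
Methylation level in percent of the 10 called windows, numbered by position, with 1 point per sample (6 HCR on the left, 8 LCR on the right of each panel) and the mean ± SD of each line beside them; open circles mark HCR replicate 4. Lines are fully apart in 7 panels, most clearly in called window 5, and overlap at the edge in called windows 3, 4 and 9.

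The calls were not equally firm. Without HCR replicate 6 the number of calls fell to 6, and other omissions of 1 sample gave 7 to 11. Called window 3 lost its call in 10 of 14 omissions (limma adjusted p from 0.0565 without LCR replicate 1 to 0.0852 without HCR replicate 6) and kept it without HCR replicates 2 and 4 and LCR replicates 2 and 8. Called window 4 lost it in 11 of 14 (limma adjusted p from 0.0518 without LCR replicate 2 to 0.0912 without HCR replicate 2) and kept it without HCR replicate 3 and LCR replicates 4 and 8. Called window 7 lost its call when HCR replicate 1, 2, 3, 4 or 6 was left out (limma adjusted p = 0.0563, 0.0532, 0.0565, 0.0519 and 0.0585). For called window 6 the call ended on omission of HCR replicate 3, LCR replicate 4 or LCR replicate 7 (limma adjusted p = 0.0572, 0.0507 and 0.0503). For called window 9 it ended on omission of HCR replicate 2, 4 or 6 (limma adjusted p = 0.0603, 0.0566 and 0.0510). Called windows 1, 2, 5, 8 and 10 were called in all 14 omissions. After centring of the libraries on the log2 logit scale called windows 3, 4 and 7 were no longer called. With the percentages centred instead, which was not the scale of that fit, they differed by 9.12, 11.9 and 11.6 points. After quantile normalization called windows 1, 3 and 4 were no longer called, at 7.25, 9.03 and 11.4 points. Called windows 6 and 9 were lost without moderation of the variance (limma adjusted p = 0.0542 and 0.0512), and called windows 3 and 4 in the fit that took in windows with missing values (0.0570 and 0.0566).

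Some windows outside the calls also kept the lines apart or nearly so. At 103203001 HCR samples had lowest, median and highest levels of 15.7%, 17.04% and 20.1%, and LCR samples 9.49%, 11.1% and 14.3%. At 103260001 they were 21.02%, 22.5% and 23.5% in HCR and 10.3%, 15.4% and 20.9% in LCR. Both windows separated the lines without passing the test, by gaps of 1.48 and 0.106 points. The window at 103203001 was called with untransformed levels (limma adjusted p = 0.0475) and without moderation of the variance (0.0426), against 0.146 in the test as described. The uncalled window nearest to the threshold, at 103277001, touches called window 2 and had 37.03%, 45.8% and 60.1% in HCR and 26.01%, 31.2% and 41.1% in LCR, with a limma adjusted p of 0.0594; the called window nearest to it was called window 3, at 0.0369. The window at 103277001 was called without HCR replicate 5 (limma adjusted p = 0.0401) and without LCR replicate 7 (0.0394). A window called only after centring, after quantile normalization or without HCR replicate 2, at 103916001, stood at 49.3% ± 5.38 (SD) over the 6 HCR samples and 61.0% ± 4.47 (SD) over the 8 LCR samples.

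Among the 190 windows with missing values, 1 differed nearly as much as called window 5. At 103175001 to 103176000 the 6 HCR samples had a lowest level of 36.8%, a median of 58.9% and a highest of 64.5%, and the 7 LCR samples with a value 8.27%, 19.7% and 30.5%; LCR replicate 8 had none. All 6 HCR samples were above the 7 LCR samples, and their means of 54.5% ± 11.3 (SD, n = 6) in HCR and 20.2% ± 7.98 (SD, n = 7) in LCR differed by 34.3 points (SE 5.53). This window lay within the stretch of the calls and was called in the fit over all 194367 windows, where missing samples were dropped window by window and 0.366% were called. A second window with missing values separated the lines on the values present, at 102358001, before the stretch. Its 4 HCR values were all equal, at 75%, and its 6 LCR values ran from 57.1% to 74.6%, and it was not called.

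Windows near the calls had differences of several sizes and of both signs. Of the 10 called windows, 6 had a touching window with values, and in 5 of these pairs the touching window differed in the same direction. The touching window's difference was 15.1 points beside called window 2, which itself differed by 26.6 points. Beside called windows 6, 8, 9 and 10 the touching windows differed by -4.13, -1.23, 4.46 and -5.36 points, and that beside called window 4 by -3.10 points, against its own 12.98. The touching windows of called windows 4 and 10 lacked values in 2 and 3 samples. Within 5 kb of the called windows lay 28 uncalled windows, which make 29 pairings with a called window. In 19 of the 29 the direction was the same. The median absolute difference in these pairings was 3.10 points, and over all tested windows it was 2.15 points in the stretch and 1.76 points in the series. A difference of 10 points was reached in 3 of the 29 (background 3.9%). In only 21 of the 29 did the neighbour have a value in every sample, and 1 of the 3, at 103282001, lacked 2 values. The background and the medians of the stretch and the series are over windows with a value in every sample. The called windows were chosen for their differences and their uncalled neighbours were not, so no comparison of size is drawn between them.

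Differences of opposite sign were found at close range. Called window 9 was 20.5 points higher in HCR, and 2 kb before it the window at 103939001 differed by -10.7 points; this window is named because of its values, which were seen first. Its levels were lowest 16.7%, median 23.9% and highest 26.1% in HCR, and 16.99%, 34.6% and 40.3% in LCR. LCR replicate 7, at 16.99%, was the only LCR sample among the HCR values; without it the window was called lower in HCR (limma adjusted p = 0.0304). Along the interval, 5 of the 9 steps from a called window to the next changed direction, and steps ranged from 3 to 235 kb with a median of 73 kb. Among all 211 pairs of touching common windows in the interval, 114 (54.0%) had the same sign of difference, against 57.9% of 2554 pairs on the rest of chromosome 10. After centring of the libraries the share was 61.6% in the interval and 66.2% on the rest of the chromosome. Centring took 1.12 points from every difference, while the 161 windows of the interval under 10% had a median difference of 0.143 points. Most of these low windows thereby turned negative, so no agreement of neighbours is read from the rise.

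**Figure D3:**
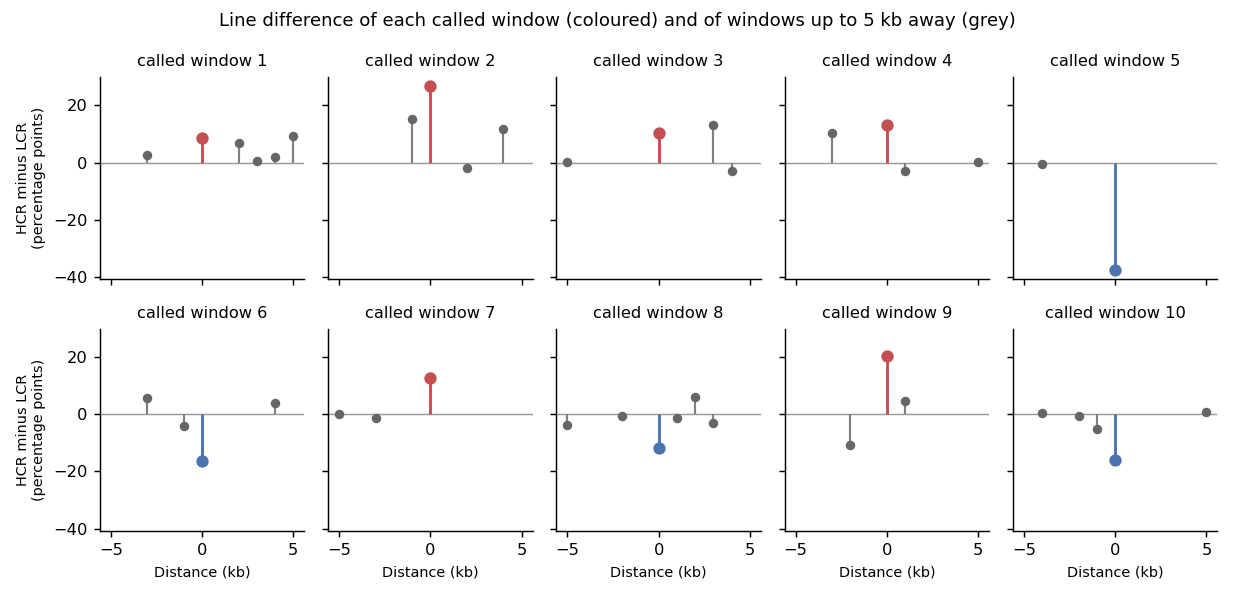
For each called window, the coloured point at 0 kb gives its HCR minus LCR difference in percentage points (red higher, blue lower in HCR), and grey points give the other windows up to 5 kb away, called ones and those with missing values included. Beside called window 2 a difference of 15.1 points is seen 1 kb away, whereas beside called window 9 a difference of opposite sign stands 2 kb away.

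The correlation of neighbouring windows within lines was low, and its size depended on whether libraries were centred. For this measure the line mean was subtracted in each window, so that it does not use the difference between lines, and windows were correlated over the 14 samples. The median correlation of touching windows was 0.0723 over 211 pairs, with quartiles of -0.154 and 0.296, and 10.9% of pairs exceeded 0.5. At over 1 to 10 kb the median was 0.0379 (1399 pairs), at over 10 to 100 kb 0.0230 (12828 pairs) and at over 100 kb to 1 Mb 0.0184 (97501 pairs). The rest of chromosome 10 had 0.0724 for touching windows and 0.0318, 0.0245 and 0.0199 at the longer distances. With each library centred on its own mean the median for touching windows was 0.199 in the interval and 0.295 on the rest of chromosome 10. At over 1 to 10 kb it was 0.0532 and 0.0542. Among windows of the interval with mean levels of 10 to 90% the median for touching windows was 0.0339 (105 pairs), and 0.0537 after centring. At the longer distances these windows had 0.0504, 0.0419 and 0.0393 without centring, so touching windows had the lowest median. On the rest of chromosome 10 the same limit gave 0.0901 for touching windows and 0.0536, 0.0487 and 0.0456 at the longer distances, without centring. Centring and the limit of 10 to 90% were combined for the interval only, so the 0.295 of the rest of chromosome 10 has no such value beside it. No closer ties of neighbours are read from 0.199 or 0.295, and their cause was not tested. In the HCR samples alone touching windows of the interval had a median correlation of 0.0564 (n = 6), and in the LCR samples alone 0.0495 (n = 8). These are descriptions over pairs that share the same libraries.

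The called windows had low correlations with each other within lines. Their 45 pairs had a median of 0.0573 over the 14 samples, or -0.0367 with the libraries centred. Without centring the pairs ran from -0.530 for called windows 1 and 6 to 0.499 for called windows 4 and 9. HCR replicate 4 was the highest or lowest HCR sample in 5 of the 10 called windows, in called window 5 towards LCR and in called window 6 away from it. LCR replicate 8 was an extreme LCR sample in 5 of them.

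**Figure D4:**
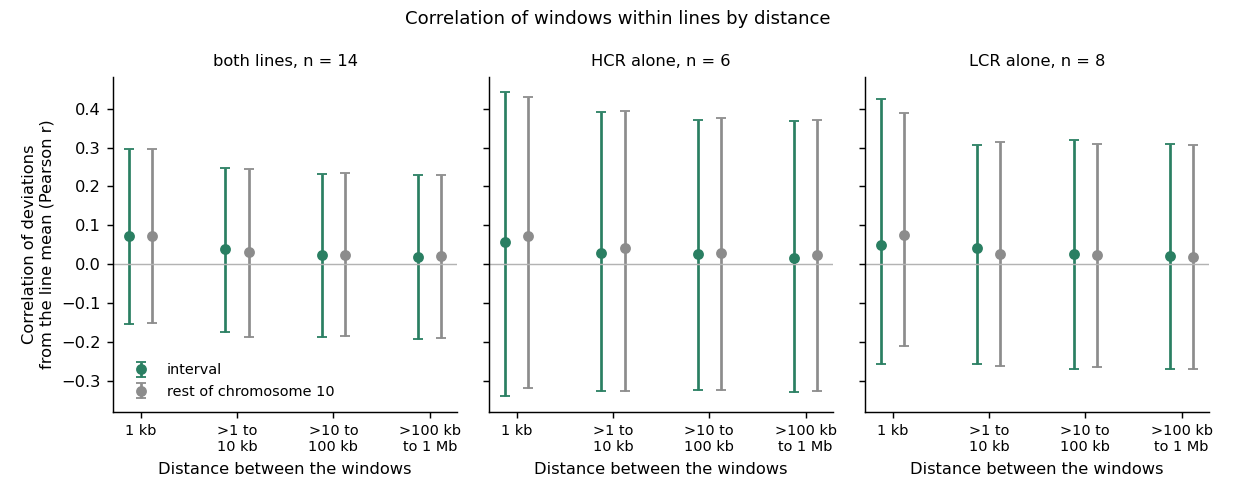
Median (points) and quartiles (bars) of the Pearson correlation between 2 windows of their deviations from the line means, by distance between the windows, for the interval (left of each pair) and the rest of chromosome 10, in both lines together (n = 14), HCR alone (n = 6) and LCR alone (n = 8). Libraries are not centred here, and the medians stay under 0.08 at every distance in every panel, while the quartiles reach well to both sides of 0.

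Distances between samples are given as a description, since the interval was chosen for windows that differ between the lines and its central stretch is bounded by them. Over the whole interval the mean absolute difference between 2 samples was 5.95 points for pairs across lines, 5.59 points for HCR pairs and 5.36 points for LCR pairs, and for all 6 HCR and all 8 LCR samples the nearest sample was one of the same line. On the rest of chromosome 10 this held for 0 of 6 HCR and 8 of 8 LCR samples, with 5.82 points across lines, 5.72 for HCR pairs and 5.30 for LCR pairs. In the stretch of the calls, where the choice of windows favours grouping by line, the values were 6.85, 6.10 and 5.71 points, with 6 of 6 and 8 of 8. In the 425 windows outside the stretch 2 of 6 HCR samples and 8 of 8 LCR samples were nearest to their own line. When the called and the separated windows were left out of the stretch, the remaining 190 windows gave 6.31, 6.15 and 5.79 points, and 3 of 6 HCR and 7 of 8 LCR samples were nearest to their own line. No 2 samples were closer than 4.44 points over the interval, so no library appeared to have been deposited under 2 names.

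Some windows varied far more within each line than between the lines. The 5 uncalled windows with the largest pooled SD within lines had SDs of 17.8 to 21.9 points, where the median over the interval was 4.36 points. In the most variable, at 103130001, HCR samples had lowest, median and highest levels of 8.00%, 53.2% and 71.1%, and LCR samples 3.26%, 41.2% and 54.4%. The values fell into a low set of 4 samples, HCR replicate 3 at 8.00% and LCR replicates 7, 6 and 2 at 3.26%, 8.51% and 12.0%, and a high set of 10 samples at 40.6% or more. Within the interval those 4 samples lacked 44 values (HCR replicate 3) and 86, 43 and 45 values (LCR replicates 7, 6 and 2), and the others 8 to 41, so that the border between the sets was narrow. Over the series LCR replicate 7, HCR replicate 3 and LCR replicate 2 also had the largest numbers of missing values. However, HCR replicate 1, in the high set at 40.6%, lacked 12895 and LCR replicate 6 lacked 12494. The part of missing values in this pattern was not tested.

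The other variable windows were split differently. At 102851001 HCR replicate 6 had 1.96% and LCR replicate 6 had 0.746%, and the other HCR samples had 33.7% or more, while other LCR samples went down to 16.4%. At 102766001 levels ran from 7.02% over a median of 26.8% to 65.6% in HCR and from 0% over 24.5% to 43.7% in LCR. At 103997001 they ran from 7.50% over 35.2% to 65.1% in HCR and from 10.5% over 33.5% to 53.6% in LCR. At 102441001 they ran from 8.33% over 32.3% to 57.7% in HCR and from 17.4% over 33.8% to 64.4% in LCR. In each of these windows the lines overlapped. All 5 variable windows lay outside the stretch of the calls, those at 103130001 and 103997001 close to its ends.

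**Figure D5:**
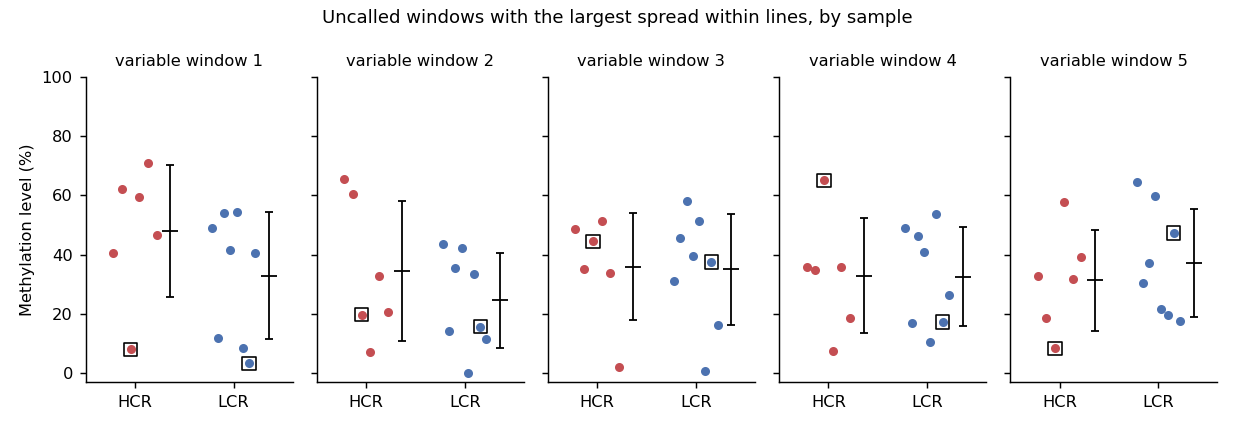
Methylation level in percent of the 5 uncalled windows with the largest pooled SD within lines, in order of falling SD, with 1 point per sample (HCR left, LCR right in each panel) and the mean ± SD of each line. Squares mark HCR replicate 3 and LCR replicate 7, the sample of each line with the largest number of windows without a value. The lines overlap in every panel, and both squares are low in variable window 1, at 8.00% and 3.26%, but not in variable window 3.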

How the data were processed

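The authors' deposited table gives percent methylation per library in non-overlapping 1000 bp windows of rn7, with no counts. Per the labels' protocols, 100 ng of genomic DNA per library was cut with MspI, and the libraries were converted with bisulfite and amplified, in pools whose members the labels do not name. FastQC, Trim Galore 0.6.10, Bismark and Bowtie2 were used, per the submitters' processing notes. How the windows were formed, with which coverage minimum and which treatment of missing values, is not given in the sources. A window averages its covered cytosines, so a change at a single CpG is diluted, and libraries that cover different CpGs can differ in level. Depth is unknown, so errors are spreads between samples.

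Columns were matched to samples by library name, with 0 sample columns unused. Levels were divided by 100, transformed to log2((level + 0.01)/(1 - level + 0.01)) and fitted in limma 3.58.1 (R 4.3.3) over 135802 common windows, with line as factor, all 14 samples, a variance trend and Benjamini-Hochberg adjustment. Distances, runs and correlations were computed in Python 3.11.15 with numpy 2.4.6 and pandas 2.3.3. The fit and the correlation were tested on simulated data. Correlations used deviations from the line means, and windows without spread were left out of them. The windows, the interval and the descriptions were chosen with earlier results of these data known. Windows named included the called windows, those touching them, those separated without a call, the one nearest to the threshold and the 5 uncalled windows of largest spread within lines. Also named for their line difference were windows called only under another setting or omission, and windows with missing values that were called or separated. Windows near a called window that differed by at least 10 points were named on the same ground. The windows at the borders were named for their position. Alternatives were other scales, offsets, filters and normalizations, no moderation, a replicate block and the omission of each sample.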

Additional observations from a re-analysis of the deposited data

Results flagged for a closer look

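In 41 sets of values 4 held a sample far from the others of its line. The sets were named windows (called, separated or variable), the mean level and the number of windows without a value, each per line. A chance rate of about 1 in 20 holds for independent sets. These sets share the same libraries, and the windows were chosen on their values, so 4 of 41 is not compared with it. HCR replicate 4 had 24.6% in the window at 103145001, where the next HCR sample had 17.9%, and 29.03% in the window at 103971001, where the next had 24.5%. LCR replicate 7 had 43.1% in the window at 103634001, and the nearest LCR sample 54.4%. HCR replicate 6 had 1.96% in the window at 102851001, and the nearest HCR sample 33.7%.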

How the results depend on the processing

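Called windows numbered 10, and 8 to 11 with untransformed levels, an offset of 0.05, no moderation, centring, quantile normalization, mean levels of 5 to 95%, all windows, autosomes or differences of at least 10 points. Leaving out each sample gave 6 to 11. Both lines have replicates numbered 1 to 6, and no label says that a number marks a shared litter; same-numbered samples deviated together with correlations of only -0.0317 to 0.0336, so they were not treated as pairs. With the number as a replicate block 1 window was called, and the same 12 samples without the block gave 7. Fully separated windows numbered 9, and 7 after centring or quantile normalization. With a gap of at least 5 points they numbered 2, both lower in HCR. Without 1 sample they numbered 9 to 13, but omission of a sample cannot end a separation, so this count could not fall and shows no firmness. The mean difference of the interval was 1.003 points, 0.799 to 1.32 points without 1 sample and 1.61 points with the median over windows in place of the mean, but -0.115 points after centring and -0.161 points after quantile normalization, which take out the shift of whole libraries. The median correlation of touching windows was 0.0723, and 0.0542 to 0.0994 without 1 sample. It was 0.199 after centring, 0.104 after quantile normalization, 0.0339 among windows of 10 to 90%, and 0.0537 after centring among windows of 10 to 90% only, a setting that was added after seeing the data, as was the limit of 2 missing values (10 separated windows). The cause was not tested. Of the differences of named windows, 0 changed sign with a call. Depth is unknown, so its limits could not be set.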
